A study of Mus musculus with 2 samples.

Results

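The cells described here are 133 complement-expressing cells of an injured mouse retina that carried the highest shares of 5 transcripts used to mark resting microglia, P2ry12, Tmem119, Siglech, Gpr34 and Sall1. They came from the library of mice given sodium iodate (NaIO3), and were 133 of its 9746 cell barcodes and of 15988 in the series. A cell entered the gate with at least 3000 UMIs (unique molecular identifiers, each standing for 1 captured transcript) and at most 15% mitochondrial UMIs. C1qa, C1qb and C1qc together had to reach 0.3% of its UMIs. Nkg7, Xcl1 and Gzma, transcripts of natural killer cells, had to stay under 3 UMIs, and Spp1 with Gpnmb, transcripts of activated phagocytes, under 0.5%. The gate held 667 NaIO3 cells. Those with at least 0.06% of UMIs from the 5 markers are called marker-high (133 cells), those below 0.02% marker-low (207 cells), and the 327 between them marker-intermediate.

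Microglia are the resident macrophages of the retina and brain. In a resting retina they extend branched processes through the synaptic layers and express a set of genes that depends on TGF-beta signalling and on the transcription factor Sall1. P2ry12 is a purinergic receptor that senses nucleotides released by damaged cells, Gpr34 is a receptor for lysophosphatidylserine, Siglech is a sialic acid-binding lectin, and Tmem119 is a membrane protein used to tell microglia from other macrophages. These transcripts are known to decline when microglia respond to injury, and blood monocytes that enter the tissue express them at low levels.

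Sodium iodate is an oxidant that injures the retinal pigment epithelium, after which photoreceptors degenerate. Mice received 20 mg/kg into a vein or the same volume of phosphate-buffered saline (PBS), and retinas were taken on day 7. Each group was 1 library made from the pooled, papain-digested retinas of 6 mice, and the labels used here give no strain, age or sex. Both libraries are labelled as CD11b-positive microglia, but separation with CD11b beads is described for the NaIO3 pellets alone, so injury and selection cannot be told apart between them. With 1 library in each group there is no replicate check, and every interval below is a 95% interval for counting error only.

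The NaIO3 library held 75981079 UMIs and the PBS library 26605477. Of the 9746 NaIO3 barcodes, 4669 met the depth and mitochondrial limits, 856 of those reached the C1q limit, the natural killer limit removed 116, and the Spp1 and Gpnmb limit removed 73 more. The 133 marker-high cells were 19.9% of the gate (17.0 to 23.2, exact binomial interval). They had a median of 14400 UMIs (3057 to 54982) and 3813 genes, against 9338 UMIs (3044 to 89294) and 3024 genes in marker-low cells. Median mitochondrial shares were 2.49% and 2.20%. The libraries shared 24 barcodes, of which 1 belonged to a marker-high cell.

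The marker share chose the cells, so the levels of the 5 markers are a description. In marker-high cells the share ran from 0.0605% to 0.252% of UMIs with a median of 0.0805%. It had no gap at the threshold. The lowest marker-high cell had 2 marker UMIs of 3306 and the highest cell outside had 2 of 3334. From 0.05% to below 0.06% there were 49 cells, and from 0.06% to below 0.07% there were 38 marker-high cells. Of the 133, 12 rested on 2 to 4 marker UMIs and 93 on 10 or more. Among marker-low cells 104 had no marker UMI. The plot of marker shares shows a continuous distribution cut at 2 values, so the cells are a range and not a separate cluster.

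**Figure D1:**
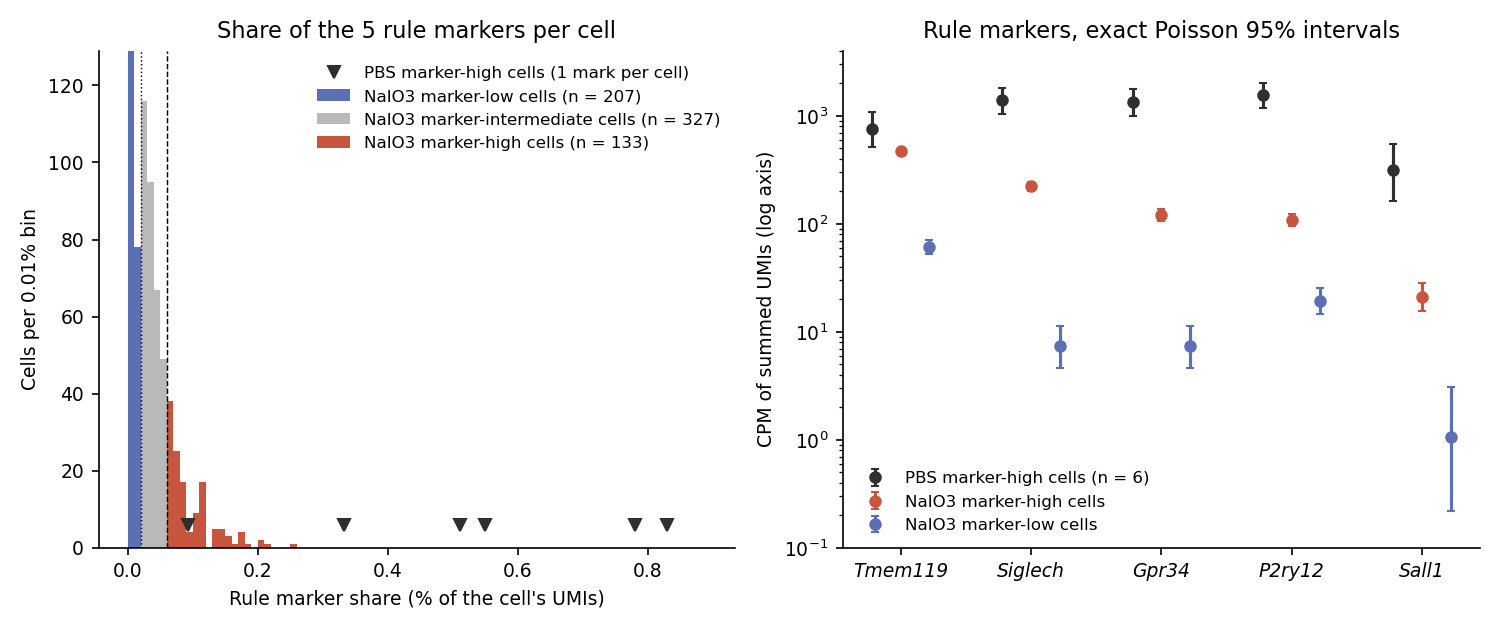
Left, number of cells (y axis) in bins of the share of UMIs from the 5 markers (x axis, %), for the 667 NaIO3 gate cells coloured by class, with dotted and dashed lines at 0.02% and 0.06% and a triangle for each PBS marker-high cell. Right, level of each marker in CPM (log axis) with exact Poisson 95% intervals in 3 classes; for every marker the PBS cells are highest and the NaIO3 marker-low cells lowest.

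Summed UMIs of a class were divided by its total and put on the CPM scale. Tmem119 stood at 473 CPM in marker-high and 60.8 CPM in marker-low cells, a ratio of 7.78 (6.62 to 9.19). Siglech stood at 222 and 7.42 CPM, Gpr34 at 121 and 7.42 CPM, P2ry12 at 108 and 19.4 CPM, and Sall1, the transcription factor, at 21.2 and 1.06 CPM. Tmem119 supplied 50.05% of all marker UMIs, which is a share of counts and not a comparison of transcript levels between genes. It was found in 129 of the 133 cells, Gpr34 in 89, P2ry12 in 87, Siglech in 78 and Sall1 in 16. At least 3 of the 5 markers were found together in 91 cells and all 5 in 12, while 8 cells had Tmem119 alone. Reference rods gave a level outside the gate. In 2289 of them (cells of the same library and limits with no C1q UMI and at least 0.5% of UMIs from 3 rod phototransduction transcripts, Sag and Gnat1 among them) each marker was at or below 0.602 CPM. Rods that held free RNA of C1q cells can be missing from them, as no C1q UMI was allowed. Their level of a microglial gene can therefore understate the free RNA in the gate, which was not measured.

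To measure each marker in cells that it had not chosen, it was left out of the rule in turn. In cells selected on the other 4, Gpr34 was 3.51 times as high as in the cells below 0.02% (2.71 to 4.55), Siglech 2.79 times (2.28 to 3.41), P2ry12 2.64 times (2.11 to 3.31) and Tmem119 1.53 times (1.33 to 1.75). Sall1 was 15.1 times as high (5.53 to 57.6) on 49 and 4 UMIs. All 5 intervals lay above 1, but they cover counting error only and not the spread between cells. The 13 marker-high cells with the most Sall1 UMIs held 93.9% of those in the class. Without Tmem119 in the rule 43 cells remained marker-high, the fewest of the 5 choices. When the UMIs of each cell were split at random into equal parts, 88 of the 154 cells that were marker-high in 1 part were marker-high in the other (57.1%), 48 were marker-intermediate and 18 marker-low. On the part that had not chosen the cells, Siglech was 10.8 times as high (7.43 to 16.1), Gpr34 3.84 times, Tmem119 2.84 times and P2ry12 2.74 times.

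In the PBS library 7 cells passed the gate, 6 of them marker-high (85.7%, 42.1 to 99.6, exact binomial interval), 1 marker-intermediate and 0 marker-low, which allows a marker-low share of up to 41.0% by the same interval. The 6 PBS cells held 38172 UMIs, so 1 UMI is worth 26.2 CPM there. Their marker shares were 0.0934%, 0.332%, 0.511%, 0.549%, 0.780% and 0.830%. The lowest of them had 3 Siglech UMIs and none of the other 4 markers. Pooled, the 6 cells carried 0.534% of UMIs from the markers against 0.0945% in the NaIO3 marker-high cells, 5.66 times as much. No NaIO3 cell reached the median PBS cell, and 52 of 133 reached the lowest one. The data therefore go against a reading of the name "microglia keeping homeostatic markers" as microglia at PBS levels: the 133 cells kept these transcripts only relative to other cells of their library.

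The markers stood at unequal fractions of their PBS level. Tmem119 in NaIO3 marker-high cells was at 62.2% of the PBS value (interval of the ratio 0.431 to 0.934), calculated from 29 PBS UMIs. Siglech was at 16.0% on 53 UMIs, Gpr34 at 9.04% on 51, P2ry12 at 6.98% on 59 and Sall1 at 6.75% on 12. Across the 6 PBS cells P2ry12 had 0, 5, 17, 14, 19 and 4 UMIs and Tmem119 had 0, 5, 1, 4, 8 and 11, so both varied between cells. Among other genes of resting microglia, Olfml3 was at 62.5%, Cx3cr1, the fractalkine receptor, at 42.4%, and Sparc, a matrix protein, at 14.5% of PBS. Fcrls, an Fc receptor-like gene of resting microglia, went the other way, at 388 CPM in NaIO3 marker-high cells against 1 UMI in the PBS cells, 14.8 times as high (2.65 to 585). Csf1r, the receptor for the survival factors Csf1 and Il34, was at 72.9% (ratio interval 0.567 to 0.953). Apoe, a lipid carrier, gave 17252 CPM in the NaIO3 marker-high cells and 1 UMI in the 6 PBS cells. Cd74, the invariant chain of MHC class II, and Fn1, fibronectin, had no UMI in the PBS cells, and against a floor of 3 UMIs over the group they were at least 20.8-fold and at least 6.66-fold higher in NaIO3 marker-high cells.

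The main comparison was between marker-high and marker-low cells of the NaIO3 library, which shared animals, injury and selection. As the cells were sorted on their own counts, its differences are a description, with no test. Beyond the markers, marker-high cells had more of the other transcripts of resting microglia and of several cytokines, and less of the MHC class II and monocyte transcripts. A gene was measured with at least 20 CPM in either class and 20 UMIs in both together, which 6746 genes met, the chosen markers included. Of these, 145 were at least 2 times higher in marker-high cells (2.15% of genes measured) and 318 at least 2 times lower (4.71%). The median log2 ratio of all measured genes was 0.038. Lower genes included rod, cone and bipolar cell transcripts: of 3279 genes at 50 CPM or more that the naming rule considered, 1302 were higher in reference rods than in both classes, and 86 of those were at least 2 times lower in marker-high cells against 5 at least 2 times higher. These 1302 genes were left out of the highest and lowest genes; those that stand on a gene list are named with their level in rods.

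**Figure D2:**
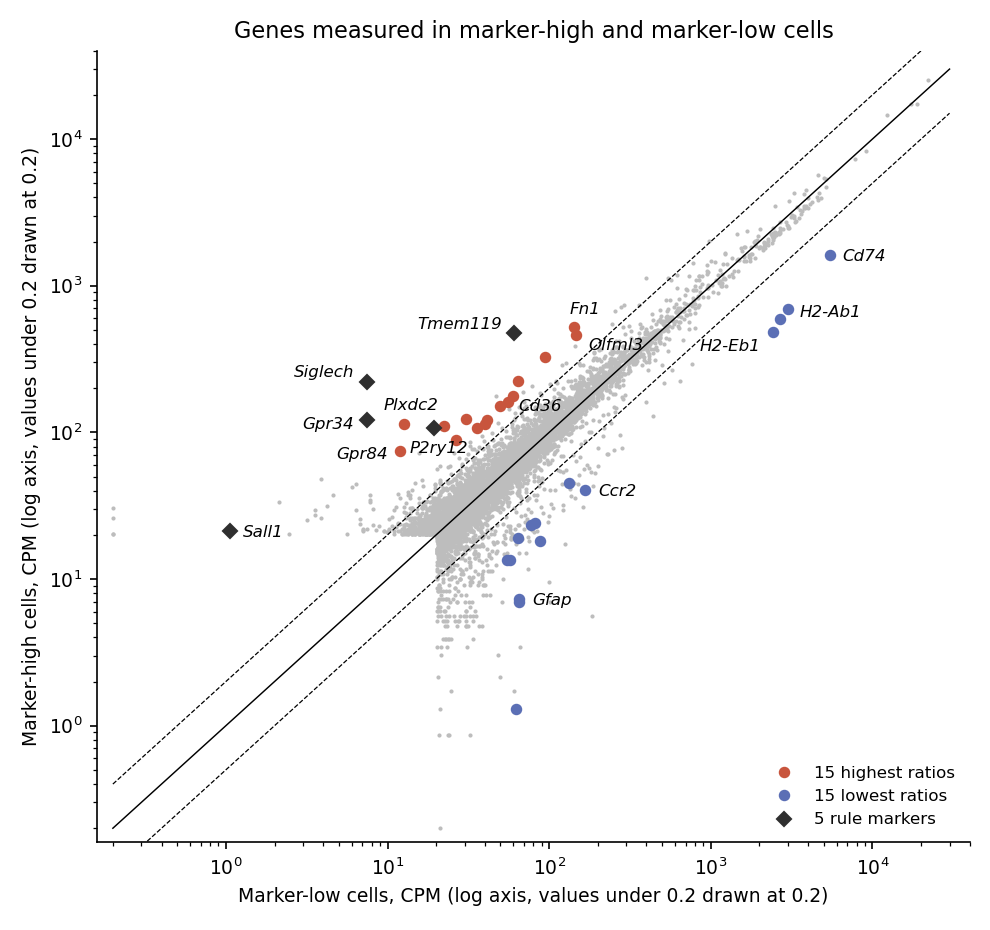
Each point is a gene, with its level in marker-low cells on the x axis and in marker-high cells on the y axis (CPM, log axes); the solid line marks equal levels and the dashed lines a ratio of 2. The 5 markers that chose the cells and the 15 highest genes lie above the upper dashed line, and the 15 lowest, with Cd74 and the H2 genes at the right, lie below the lower one.

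Of the 15 genes with the highest ratios, 6 are on the list of resting-microglia genes: P2ry13, Olfml3, Hpgd, Slco2b1, Bhlhe41 and Ltc4s. P2ry13, an ADP receptor and chromosomal neighbour of P2ry12 (mm10 chromosome 3, 59207892 to 59210882), stood at 88.3 and 26.5 CPM in marker-high and marker-low cells, 3.33 times as high (2.54 to 4.40). Olfml3, a secreted glycoprotein, stood at 458 and 146 CPM, 3.15 times (2.80 to 3.53). Per cell Olfml3 ran from 0 through a median of 276 to 2486 CPM in marker-high cells and from 0 through 85.9 to 1192 CPM in marker-low cells, so the classes overlapped. Hpgd, which degrades prostaglandins, was 3.05 times as high, and Slco2b1, an organic anion transporter, 2.995 times. Bhlhe41, a transcription factor of tissue macrophages, was at 177 and 59.4 CPM, 2.98 times, but its level in reference rods was 152 CPM, between the 2 classes. Ltc4s, the leukotriene C4 synthase, was 2.85 times as high.

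The highest ratio belonged to Plxdc2, a plexin-domain membrane protein, at 113 and 12.7 CPM, 8.91 times (6.275 to 13.01), and it was found in 64 of 133 marker-high and 22 of 207 marker-low cells. Gpr84, a receptor for medium-chain fatty acids, followed with 74.5 and 12.02 CPM, 6.196 times (4.27 to 9.24). Ch25h, which makes 25-hydroxycholesterol, was 3.47 times as high, Arsb, a lysosomal sulfatase, 4.04 times, and Fn1 3.69 times. UMIs of some of these genes came from few cells. The 13 marker-high cells with the most UMIs of a gene held 75.6% of those of Gpr84, 71.9% of Fn1 and 70.7% of Ch25h, against 39.2% of P2ry13.

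Gene lists, 23 in all, were counted at a ratio of 1.5, which 7.71% of all measured genes passed as higher and 8.29% as lower. Some lists share genes, such as Sall3, Bhlhe41, Klf2 and Itgam, so their counts are not independent. On the list of resting-microglia genes, without the 5 markers, 34 of 40 genes were measured, 21 were higher and 0 lower, and the median log2 ratio was 0.78. Sall3, a relative of Sall1, was 7.89 times as high (3.88 to 18.1) on 58 and 9 UMIs, and Sparc 3.81 times (3.13 to 4.68). Sparc stood at 178 and 46.7 CPM, both below its 257 CPM in reference rods. Fcrls and Bin1 were 2.67 and 2.65 times as high, Csf1r 1.92 and Cx3cr1 1.83 times. Trem2, a lipid receptor, was at 1.23, its signalling partner Tyrobp at 1.21 and the protease inhibitor Cst3 at 1.16, all under the threshold. Summed over the list, a marker-high cell had a median of 2.06% of its UMIs in these genes (0.769% to 4.68%) and a marker-low cell 1.20% (0.266% to 4.02%). The classes overlapped over most of that range.

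**Figure D3:**
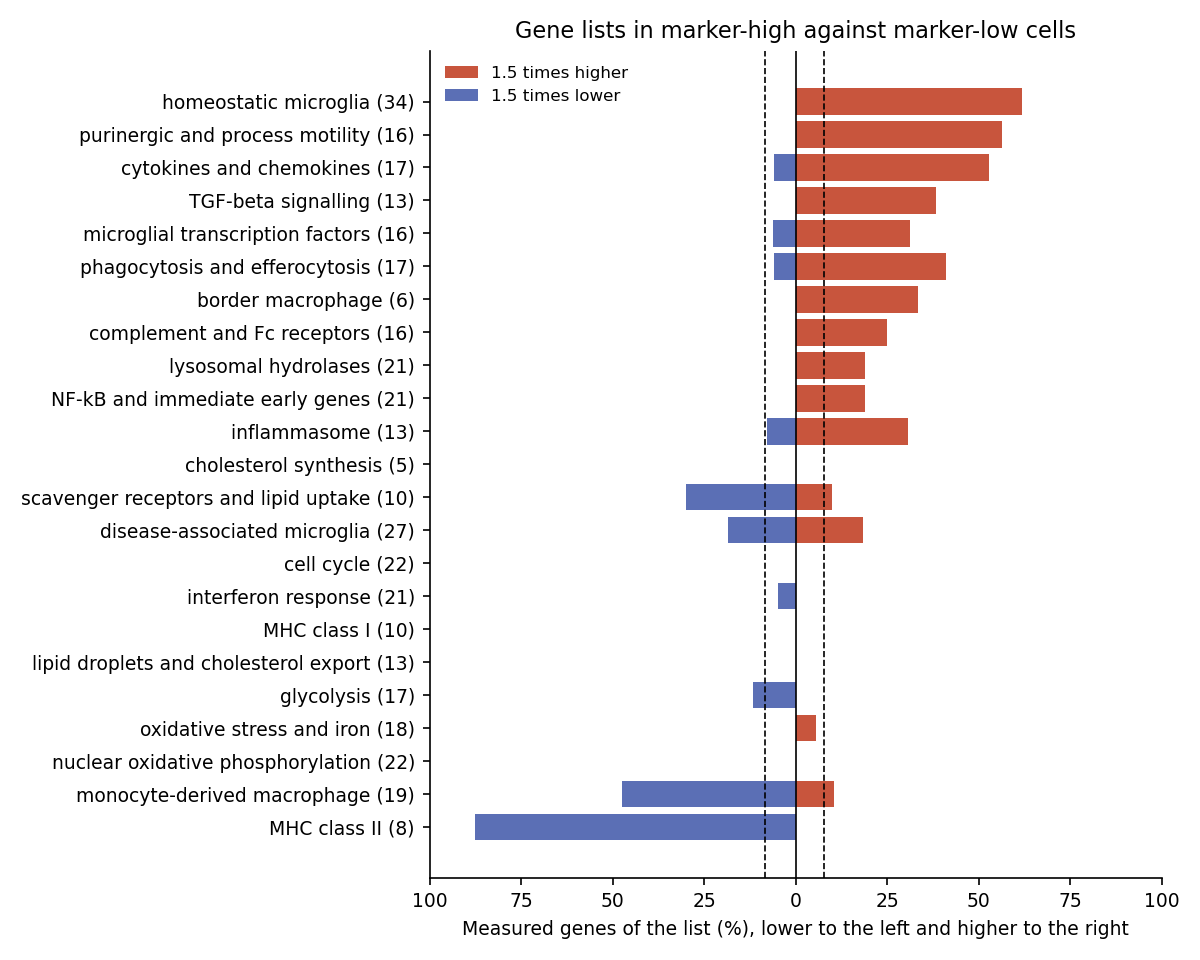
Percent of the measured genes of each list (number in brackets) that were at least 1.5 times higher (right) or lower (left) in marker-high than in marker-low cells, with lists ordered by median log2 ratio and dashed lines at 7.71% and 8.29%, the shares over all measured genes. The list of resting-microglia genes is at the top with 21 of 34 higher, and MHC class II at the bottom with 7 of 8 lower.

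Genes of the TGF-beta pathway, which maintains the resting state, were 5 higher and 0 lower of 13 measured, with a median log2 ratio of 0.57. The type II receptor Tgfbr2 was 2.11 times as high (1.80 to 2.48), the inhibitory Smad7 1.89 times, Itgb5, an integrin subunit, 1.59 times, Pmepa1, a pathway target, 1.56 times, and Nrros, which presents latent TGF-beta on microglia, 1.52 times. Tgfbr1, the type I receptor, was at 1.46. With each cell thinned at random to 3000 UMIs and classed again, the log2 ratio of Smad7 was 0.05, in place of 0.92. The median log2 ratio of the TGF-beta list was then 0.19. Of 16 microglial transcription factors 5 were higher, Sall3, Bhlhe41, Klf2 (2.63 times), Mef2c (1.83 times) and Irf8 (1.503 times), and 1 was lower, Bhlhe40 (0.373 times, 0.278 to 0.493). Receptors of extracellular nucleotides and genes of process movement were 9 higher and 0 lower of 16. That group held P2ry13, P2rx7 (1.67 times), P2ry6 (1.61 times), the potassium channel Kcnk6 (1.98 times), the small GTPase Rhob (2.24 times) and Itgam, the CD11b subunit (1.87 times). Itgam encodes the target of the beads, and its part in which cells were recovered was not tested.

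Transcripts of inflammatory signals were also higher in marker-high cells. Of 17 measured cytokines and chemokines 9 were higher and 1 lower, with a median log2 ratio of 0.60. Il1a, the precursor of interleukin-1 alpha, stood at 110.0 and 22.3 CPM, 4.94 times as high (3.73 to 6.62). Csf1 was 6.68 times as high on 60 and 11 UMIs, of which 1 cell held 36.7% of the marker-high ones, and with no Spp1 and Gpnmb limit its log2 ratio dropped from 2.74 to 0.40, under the threshold. Ccl2, a monocyte attractant, stood at 1130.5 and 399 CPM, 2.84 times (2.64 to 3.04), and Tnf at 189.6 and 68.6 CPM, 2.77 times (2.33 to 3.29). Ccl12, Ccl4, Ccl3 and Ccl7 were 2.06, 1.94, 1.72 and 1.72 times as high. The 13 cells with the most UMIs held 61.0% of Il1a, 62.6% of Tnf and 49.5% of Ccl2 UMIs. Per cell, the whole list made up a median of 0.396% of UMIs (0.0212% to 2.59%) in marker-high and 0.198% (0 to 4.15%) in marker-low cells, so the highest single cell was marker-low.

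NF-kB and immediate early genes were 4 higher and 0 lower of 21, among them Klf2, Nfkbiz (1.97 times) and Icam1 (1.91 times), while Jun was at 1.33 and Fos at 1.14. Those summed levels weight deep cells more. Per cell, the list made up a median of 1.25% of UMIs in marker-high and 0.486% in marker-low cells, with ranges that overlapped. Interferon-response genes were 0 higher and 1 lower of 21, and the median log2 ratio of 0.042 lay near that of all genes.

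Cd36, Nlrp3 and Il1b, the genes in the title of the study, had 3 different patterns. Cd36, a scavenger receptor for oxidised lipids, stood at 161 CPM in marker-high and 55.5 CPM in marker-low cells, 2.89 times as high (2.40 to 3.51). Thinned to 3000 UMIs per cell, Cd36 was found in 36.1% of marker-high cells (27.9 to 44.9) and 14.5% of marker-low cells (10.0 to 20.0), against 0.218% of reference rods. Unthinned, the shares were 59.4%, 27.5% and 0.786% at median depths of 14400, 9338 and 5377 UMIs. The marker-intermediate cells stood between, at 119 CPM and 26.6% of thinned cells. Nlrp3, the sensor of the inflammasome, stood at 54.1 and 40.7 CPM, 1.33 times (1.03 to 1.73), under the 1.5 threshold.

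Il1b, the cytokine that the inflammasome matures, stood at 180.1 CPM in marker-high and 293 CPM in marker-low cells, a ratio of 0.614 (0.544 to 0.691). The share of thinned cells with an Il1b UMI was 18.8% (12.5 to 26.5) and 19.8% (14.6 to 25.9), so the classes differed in how much Il1b a few cells held and their shares differed by less than the intervals. In marker-low cells 62 of 207 had the transcript, and the 21 with the most held 77.6% of its UMIs. Without the cells in which MHC class II genes made up 1% of UMIs or more, the log2 ratio turned from -0.70 to 1.04, and without cells with 3 or more UMIs of macrophage and monocyte genes to 0.65. No direction for Il1b is therefore drawn. Of 13 inflammasome genes 4 were higher, Il18, P2rx7, Casp4 and Nlrp1b, and Il1b alone was lower.

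Markers of disease-associated microglia, a lipid-handling state seen in degeneration, went both ways: 5 of 27 were higher and 5 lower. Cst7, a cystatin, was 7.45 times as high (4.02 to 15.1) on 73 and 12 UMIs, Igf1 1.73, Cd9 1.64 and the cathepsin Ctsd 1.55 times. Cst7 was found in 20 of 133 marker-high cells, and the highest of these held 31.5% of their Cst7 UMIs. Lgals3, galectin-3, stood at 294 and 767 CPM, a ratio of 0.383 (0.351 to 0.417), Fabp5, a fatty acid-binding protein, at 0.349, Itgax, the CD11c subunit, at 0.572 and Vim at 0.651. Gpnmb, at 17.3 and 126 CPM, was limited by the gate. Apoe did not separate the classes, at 17252 and 17329 CPM, a ratio of 0.996 (0.982 to 1.01). Under 1000 CPM of Apoe lay 8 of 133 marker-high cells (6.02%) and 12 of 207 marker-low cells (5.80%), and 2 marker-high cells had no Apoe UMI. Apoe RNA was also widespread outside the gate: reference rods held 3699 CPM, and thinned to 3000 UMIs 38.0% of them had an Apoe UMI, against 97.0% of marker-high and 99.0% of marker-low cells.

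Uptake genes differed by receptor. Of 17 phagocytosis genes 7 were higher and 1 lower. Cd14, the lipopolysaccharide co-receptor, was 2.02 times as high, Mertk, the receptor for apoptotic cells and shed outer segments, 1.91 times (1.55 to 2.36), and its ligands Pros1 and Gas6 1.88 and 1.64 times, while Cd93 was at 0.365. Among 10 scavenger and lipid-uptake genes Cd36 was higher and Vldlr, Fabp5 and Scarb1 lower, at 0.185, 0.349 and 0.646. Vldlr was at 305 CPM in reference rods, above both classes, and Fabp5 had a log2 ratio of -0.11 without cells with macrophage UMIs, in place of -1.52. Complement and Fc receptor genes were 4 higher and 0 lower of 16, among them Itgam, C5ar1 (1.75 times) and C5ar2 (1.53 times). The gate genes C1qa, C1qb and C1qc were at 1.31, 1.23 and 1.39. Lysosomal genes were 4 higher of 21. Genes of lipid droplets and cholesterol export (13 measured), cholesterol synthesis (5), MHC class I (10), oxidative phosphorylation (22) and the cell cycle (22) had 0 higher and 0 lower. Glycolysis had 2 of 17 lower, Hk1 and Pfkp, which stood at 688 and 178 CPM in reference rods, above both classes, and oxidative stress and iron genes 1 of 18 higher, Slc11a1.

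Proliferation genes stood at similar levels in both classes. Mki67 stood at 260.2 CPM in marker-high and 255 CPM in marker-low cells, a ratio of 1.02, and Top2a at 365 and 328 CPM. At least 3 UMIs of 6 cell cycle genes were found in 62 of 133 marker-high cells (46.6%, 37.9 to 55.5) and 85 of 207 marker-low cells (41.1%, 34.3 to 48.1), against 1.49% of reference rods. Thinned to 3000 UMIs, 21.1% and 21.7% had an Mki67 UMI, and the marker-intermediate cells were above both at 34.9% (29.7 to 40.3).

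The lower side was led by antigen presentation. MHC class II genes encode the peptide-presenting dimer (H2-Aa, H2-Ab1, H2-Eb1), its invariant chain (Cd74) and factors that promote or regulate peptide loading (H2-DMa, H2-DMb1, H2-DMb2, H2-Oa). Ciita is their shared transcriptional activator. Of 8 listed genes 7 were at least 1.5 times lower in marker-high cells and 0 higher, with a median log2 ratio of -1.75. H2-Eb1 stood at 485 CPM in marker-high and 2421 CPM in marker-low cells, a ratio of 0.201 (0.188 to 0.214). H2-Aa stood at 589 and 2685 CPM, H2-Ab1 at 692 and 2983 CPM, and Cd74 at 1631 and 5471 CPM, with ratios of 0.219, 0.232 and 0.298. Ciita followed at 24.2 and 82.0 CPM (0.296, 0.217 to 0.397). H2-DMa, at 250.3 and 297 CPM, did not pass the threshold. H2-DMb1 and its near-identical neighbour H2-DMb2 had ratios of 0.555 and 0.245, and reads of such a pair are hard to tell apart. MHC class I, in contrast, had 0 of 10 genes past the threshold in either direction.

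Promoters are shown for 4 of these genes because Ciita, known as the activator of the class, was among the 15 lowest genes too; its part in their levels was not tested. Ciita acts through a factor complex on an array of short boxes, the last of which is a CCAAT element known as the Y box. The 150 bases upstream of the annotated start are printed 5′ to 3′ on the gene's strand (RefSeq, GRCm38.p6, chromosome 17), with TGATTGG, whose opposite strand holds CCAAT, in capitals. This motif was chosen after the values had been seen.
H2-Aa, minus strand, chr17:34287824-34287973: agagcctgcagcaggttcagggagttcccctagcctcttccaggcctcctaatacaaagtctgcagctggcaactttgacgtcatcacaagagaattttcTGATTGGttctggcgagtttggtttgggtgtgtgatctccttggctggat
H2-Eb1, plus strand, chr17:34305717-34305866: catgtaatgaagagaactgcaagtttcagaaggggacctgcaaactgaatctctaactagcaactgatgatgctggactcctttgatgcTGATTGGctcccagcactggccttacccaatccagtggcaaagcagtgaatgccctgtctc
H2-DMb1, plus strand, chr17:34153041-34153190: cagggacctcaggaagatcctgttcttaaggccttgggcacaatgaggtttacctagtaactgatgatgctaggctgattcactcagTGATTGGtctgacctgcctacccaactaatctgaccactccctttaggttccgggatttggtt
H2-DMb2, plus strand, chr17:34145099-34145248: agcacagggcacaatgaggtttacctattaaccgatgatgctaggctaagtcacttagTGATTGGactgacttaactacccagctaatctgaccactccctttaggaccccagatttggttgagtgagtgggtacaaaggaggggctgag

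The motif began 50, 61, 63 and 92 bases upstream of the start in H2-Aa, H2-Eb1, H2-DMb1 and H2-DMb2. Searched on both strands over 250 upstream bases, TGATTGG was in the promoters of 5 of 6 MHC class II genes with an entry, H2-Oa the fifth and H2-DMa the exception, and in 7.23% of 32851 RefSeq promoters. Of the 15 highest genes, 11 had an entry and 2 held the motif. A PU.1 motif (GAGGAAGT), an IRF motif and a MEF2 motif, searched the same way, were in none of the promoters of the markers (3 genes with an entry), of those 11 genes or of the MHC class II genes, and in 2.44%, 2.98% and 0.103% of all promoters.

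Per cell, Cd74, H2-Aa, H2-Ab1 and H2-Eb1 together made up 0 to 4.87% of UMIs in marker-high cells, with a median of 0.0421%, and 0 to 6.95% in marker-low cells, with a median of 0.325%. The ranges overlapped nearly fully, and the difference was in how many cells were high. At 1% or more were 16 of 133 marker-high cells (12.03%), 88 of 327 marker-intermediate cells (26.9%) and 68 of 207 marker-low cells (32.9%), against 0.0874% of reference rods. Those 68 cells held 91.0% of the class II UMIs of the marker-low cells, and the 16 held 50.7% of those of the marker-high cells. Without the cells at 1% or more, which by construction takes out most of the signal, the median log2 ratio of the list was -0.13 and that of H2-Ab1 was 0.020.

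**Figure D4:**
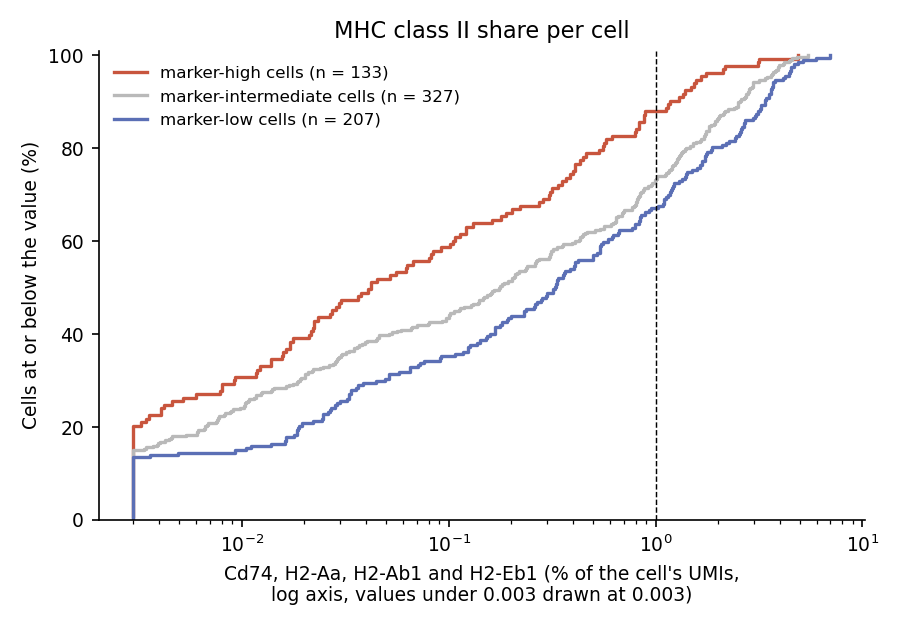
Cumulative percent of cells (y axis) at or below a given share of UMIs from Cd74, H2-Aa, H2-Ab1 and H2-Eb1 (x axis, %, log axis) for marker-high, marker-intermediate and marker-low cells, with a dashed line at 1%. The marker-high curve lies to the left, with 12.03% of cells at 1% or more against 26.9% and 32.9%.

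Several monocyte transcripts were lower as well. Ccr2, the chemokine receptor of inflammatory monocytes, stood at 40.7 CPM in marker-high and 168 CPM in marker-low cells, a ratio of 0.243 (0.193 to 0.304). It was found in 9.77% of thinned marker-high cells (5.31 to 16.1) and 22.7% of thinned marker-low cells (17.2 to 29.0), against 0.218% of reference rods. On the list of monocyte-derived macrophage genes 2 of 19 were higher, Fn1 and Ccr1 (1.53 times), and 9 lower. Ccr1 had a log2 ratio of -0.38 without cells with macrophage UMIs, in place of 0.62. S100a6, a calcium-binding protein, was at 0.194 (31.2 and 161 CPM, with 437 CPM in reference rods), S100a4 at 0.296 (its direction turned without cells with macrophage UMIs), Lgals3 at 0.383, Ly6c2, a surface antigen of classical monocytes, at 0.438 and Plac8 at 0.639. Vcan was at 0.0366, but 1 marker-low cell held 91.0% of its UMIs. Lyz2, at 2041 and 1938 CPM, and Ms4a7, at 603 and 571 CPM, had ratios of 1.05 and 1.06, so they did not follow Ccr2.

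Other immune cells could share the gate. Of 13 border macrophage markers 7 were under 20 CPM in marker-high cells and Ccl24 and Cd209f had no UMI; summed, the markers stood at 1334 and 1085 CPM, led by Ms4a7, Pf4 and Stab1. Lyve1, Cd163 and Cbr2 stood at 1.73, 6.49 and 6.93 CPM in marker-high and 3.18, 12.7 and 3.89 CPM in marker-low cells. Of the 6 border macrophage genes measured, 2 were at least 1.5 times higher and 0 lower, with a median log2 ratio of 0.42. The 2 were Siglec1, 1.75 times as high (1.36 to 2.24), and Pf4, 1.70 times (1.52 to 1.90). Without cells with macrophage UMIs the log2 ratio of Pf4 was -1.25, in place of 0.76. Mrc1 was at 73.6 and 55.1 CPM and came from 33 marker-high cells. The 6 monocyte markers summed to 189.6 and 456 CPM, with Chil3 absent from marker-high cells. By bin of the marker share these 6 did not fall in order: they made up 0.0456% of UMIs below 0.02%, 0.0251% from 0.02 to 0.06%, 0.0136% from 0.06 to 0.12% and 0.0457% at 0.12% and over, where 6 of the 23 cells had any and the highest had 0.372%. The 8 dendritic cell markers summed to 61.5 and 127 CPM, with Itgae, the CD103 subunit, at 6.93 and 65.4 CPM. Xcr1 and Flt3 lay under 20 CPM in both classes. Xcr1 had a ratio of 0.223 on UMIs of 2 marker-high and 4 marker-low cells. Flt3 was at 0.490 (0.210 to 1.06) on 10 and 25 UMIs, an interval that includes 1. Fscn1, Ccr7 and Clec9a had ratios of 1.98 (1.27 to 3.13), 1.11 (0.648 to 1.89) and 1.09 (0.519 to 2.26). Neutrophil markers summed to 1.30 and 0.354 CPM, with S100a8, S100a9, Retnlg and Ly6g at 0. T and natural killer cell markers summed to 7.79 and 9.54 CPM. At least 3 UMIs of 7 macrophage and monocyte genes were found in 95 marker-high cells (71.4%) and 132 marker-low cells (63.8%). The cells were not thinned for this count, and a deeper cell passes more easily. Most of the marker-high UMIs were of Ms4a7, with 1393 in 105 cells. Mrc1 had 170 UMIs in 33 cells, Ly6c2 128 in 11 and Ccr2 94 in 30. Most of the 133 cells thus carried microglial transcripts together with macrophage ones, chiefly Ms4a7. Which of them are resident microglia was not tested.

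Retinal RNA was higher in marker-low cells. The 8 rod markers summed to 959.9 CPM in marker-high and 2616 CPM in marker-low cells, against 29205 CPM in reference rods, the cone markers to 48.5 and 253 CPM and the bipolar markers to 36.4 and 235 CPM. At 1% or more of UMIs from rod, cone, bipolar and amacrine markers were 4 marker-high cells (3.01%) and 32 marker-low cells (15.5%). Without those cells, 137 genes were at least 2 times higher and 185 at least 2 times lower, in place of 145 and 318. Doublet calling with scrublet marked 1 marker-high and 18 marker-low cells. Among the 15 lowest genes, some rested on a single marker-low cell. For Gfap, an intermediate filament of reactive glia, 1 cell held 89.2% of the UMIs, and for Gpx3, a glutathione peroxidase, 1 cell held 80.9%. Itgae lay in 21 marker-low cells. The others were spread: Napsa, an aspartic protease, lay in 58 marker-low cells (0.207, 0.146 to 0.289), Smpdl3a, a sphingomyelinase-like enzyme, in 88 (0.305, 0.222 to 0.412) and Kctd14 in 45 (0.234), with the highest cell at 9.68%, 5.99% and 32.1% of their UMIs. Without cells with 1% MHC class II the log2 ratio of Napsa was -0.086, in place of -2.27. Under 16 alternative settings none of the 15 highest genes turned lower, but Gfap, Gpx3, Itgae, S100a4, H2-DMb2 and H2-Ab1 turned higher in at least 1.

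The levels followed the marker share in steps. In 4 bins, below 0.02%, 0.02 to 0.06%, 0.06 to 0.12% (110 cells) and 0.12% and over (23 cells), Plxdc2 stood at 12.7, 24.4, 86.3 and 249 CPM. Olfml3 stood at 146, 236, 423 and 633 CPM and Cd36 at 55.5, 119, 145 and 239 CPM. Every one of these steps went up. The 4 main MHC class II genes fell over the first 3 bins and not over the last. H2-Eb1 stood at 2421, 1402, 485 and 485 CPM and Cd74 at 5471, 3404, 1628 and 1648 CPM. H2-Aa rose from 567 to 701 CPM between the last 2 bins and H2-Ab1 from 675 to 779 CPM. The 23 cells with the highest marker share thus had no less of these 4 than the other 110. Il1b had no order, at 293, 179, 152 and 319 CPM. Of the markers, Siglech stood at 146 CPM in the lower and 602 CPM in the upper bin of the 133 cells and Sall1 at 11.95 and 67.5 CPM, while Tmem119 was at 451 and 582 CPM.

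**Figure D5:**
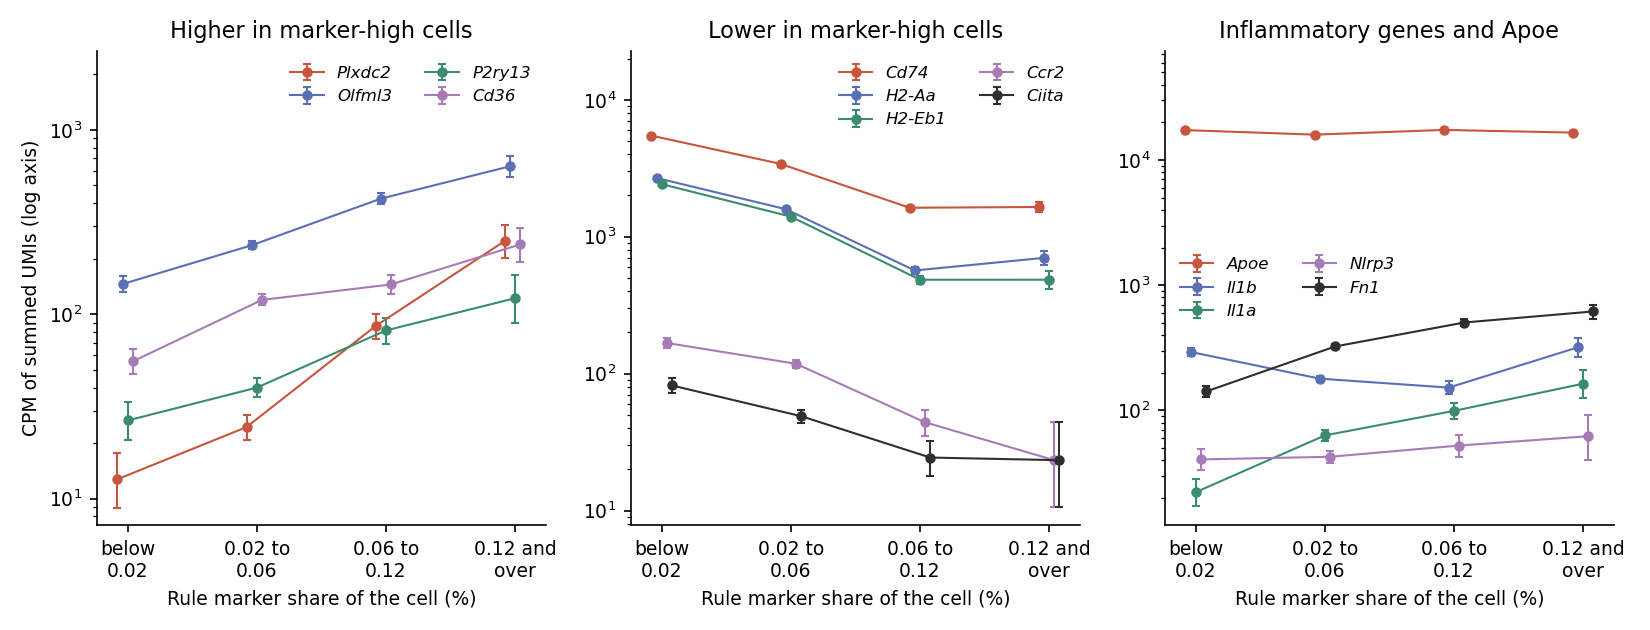
Level of selected genes (CPM of summed UMIs, log axis, exact Poisson 95% intervals) in 4 bins of the marker share of the cell (x axis, %). The left group is higher in each further bin, the middle group levels off or is lower, and on the right Apoe is nearly level while Il1b is highest in the outer bins.

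The 133 cells were not alike. Sall1 was found in 16 of them, a split made after its values had been seen. Those 16 had a median of 24369.5 UMIs against 12923 in the other 117, and a deeper cell is more likely to show a rare transcript, so the groups differ in depth as well. They differ in marker share too, with medians of 0.117% and 0.0797%, so the split overlaps with the bins above. Sparc stood at 573 CPM in the 16 and 89.6 CPM in the 117, 6.397 times as high (5.23 to 7.83). Arsb, Plxdc2, Fn1 and Olfml3 were 4.56, 3.55, 3.30 and 2.88 times as high. Apoe went the other way, at 10269 and 18815 CPM, as did Lyz2 at 1089 and 2254 CPM, Ms4a7 at 336 and 663 CPM and Il1b at 56.8 and 208 CPM. Ccr2 stood at 4.73 CPM on 2 UMIs in the 16, against 48.8 CPM in the 117. Unlike Il1b, Tnf and Ccl2 were higher in the 16, 2.03 and 1.55 times, and so was Mki67, 2.10 times. Of the other markers, P2ry12, Siglech and Gpr34 were 1.71, 1.68 and 1.55 times as high in the 16. Tmem119 did not follow Sall1, with 449.8 and 478 CPM. Hpgd and Slco2b1 also stood at ratios near 1, 0.872 (0.645 to 1.16) and 1.19 (0.860 to 1.63). Sparc was at 1231 CPM in the 6 PBS cells and 257 CPM in reference rods. Apoe was found in all 16 cells.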

How the data were processed

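Each library was deposited as unnormalised UMI counts (genes by barcodes), output of Cell Ranger 3.0.2 per the file headers. The build mm10 comes from the submitters' processing notes, and for the gene annotation the sources used here give no version. Of 31053 gene IDs, 30934 are in GENCODE M21, used for positions. Cells were taken by the stated rule, with no doublet removal. Counts were summed per class and scaled to CPM. Ratios have exact conditional binomial (Clopper-Pearson) intervals, levels exact Poisson intervals and shares exact binomial intervals, all 95% and for counting error only. UMIs remove PCR copies, but cells of 1 library are not replicates, so no p-value was computed. A count of 0 was set at 3.

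The members and gene lists were chosen with earlier results of these data known. Named genes are the markers, the gate genes, Cd36, Nlrp3, Il1b and Apoe, and, of genes with 50 CPM in either class and 50 UMIs, the 15 at each end of the ratio. Mitochondrial, ribosomal, sex-linked and unnamed models were left out, and so were genes higher in reference rods than in both classes. Of each list up to 4 genes were to be named, the 2 highest and 2 lowest; others given were picked for their known roles after their values were seen. Leaving out cells with 1% neuronal markers or 1% MHC class II, the Y box and the Sall1 split were also chosen after seeing the data. A few genes that the rule names are not reported here.

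Tools were Python 3.11.15, numpy 2.4.6, pandas 2.3.3, scipy 1.17.1, scanpy 1.11.5 (scrublet, 180 of 9441 cells marked, 1.91%) and, for TMM factors, edgeR 4.0.16 in R 4.3.3. The ratio step was tested on simulated data. Thinning drew 3000 UMIs per cell, a depth that every gate cell reached.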

Additional observations from a re-analysis of the deposited data

How the results depend on the processing

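The 15 highest genes gave 240 values under 16 alternatives, of which 220 were at least 2 times higher and 0 turned lower. The 15 lowest gave 237, of which 200 were at least 2 times lower and 14 turned higher. The marker-high share of the gate was 19.9%; it was 7.35% with a threshold of 0.10%, 26.8% in thinned cells and 23.6% without cells with 1% MHC class II UMIs. The 145 genes at least 2 times higher became 329 with a threshold of 0.10%, 540 against low cells with no marker UMI, 60 against the marker-intermediate cells, 224 with mean per-cell CPM, 223 in thinned cells, 243 without cycling cells, 510 without cells with macrophage UMIs (38 against 75 cells) and 316 with no CPM filter. The 318 genes at least 2 times lower became 601 against low cells with no marker UMI, 53 against the marker-intermediate cells, 592 without cycling cells, 548 without cells with macrophage UMIs, 919 with no CPM filter and 185 without cells with 1% neuronal markers. TMM and median-of-ratios scaling gave 145 and 146 higher and 318 and 315 lower. The cause of these shifts was not tested, apart from the fewer cells or the further genes that a setting holds by construction.

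Genes that turned higher, as log2 ratios, were Gpx3 at 0.70 with a mitochondrial limit of 5%, 0.90 against low cells with no marker UMI, 0.40 against the marker-intermediate cells, 0.70 without cycling cells and 0.43 without cells with macrophage UMIs. Gfap was at 2.37 against low cells with no marker UMI and 0.60 in thinned cells, Itgae at 0.29 and H2-DMb2 at 0.070 against low cells with no marker UMI, and S100a4 at 0.43 without cells with macrophage UMIs. Without cells with 1% MHC class II UMIs Itgae was at 1.15, S100a4 at 0.20, H2-DMb2 at 0.18 and H2-Ab1 at 0.020. No paired analysis was possible because each group is 1 library. Depth limits single cells most: 1 UMI in the shallowest marker-high cells exceeds 0.03% of UMIs, so 2 marker UMIs decide their class.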
